A study of Mus musculus with 4 samples.

Results

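The genes described here are 8 genes that encode enzymes of haem synthesis, taken in pathway order: *Alas1* and *Alas2*, *Alad*, *Uros*, *Urod*, *Cpox*, *Ppox* and *Fech*. They were chosen by name and not by a rule on their values, although earlier results of these data were known. All 8 were found among the 23906 gene symbols listed for each sample. All 8 also passed the low-value filter, which asks for 1 FPKM or more in 1 of the samples (FPKM counts fragments relative to transcript length and to library size), as did 13609 genes in all.

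RNA was sequenced from LSK-SLAM cells, the Lin-Sca1+cKit+CD150+CD48- population in which HSCs are enriched. The cells came from *BRE GFP* transgenic mice on a C57BL/6 background, in which a BMP responsive element drives GFP when BMP receptors signal through Smad1/5. There were 4 samples and 1 per group: GFP+ (BMP-activated) and GFP- (non-BMP-activated) cells from E14 fetal liver (FL), and the same fractions from adult bone marrow (BM). All groups thus carried the transgene, which embryos received from heterozygous males mated with wild-type females. Because the reporter shows current signalling, a GFP- cell may have responded to BMP earlier. The lineage antibodies against CD3, B220, Ter119 and Ly6c were used in both tissues, and CD11b was added for adult BM. Neither the number of embryos or mice behind a sample nor the age of the adults is given in the labels.

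Haem is an iron atom held in a porphyrin ring, and every cell needs it for cytochromes and other enzymes, while red cell precursors make it in bulk for haemoglobin. The pathway starts in the mitochondrion, where ALA synthase joins glycine to succinyl-CoA. It continues in the cytosol and returns to the mitochondrion for its last steps, which end when ferrochelatase inserts iron. ALA synthase is the rate-limiting enzyme and has separate genes: *Alas1*, used in most tissues, and the X-linked *Alas2*, used in erythroid cells. The erythroid transcription factor GATA1 drives *Alas2*, and the translation of its mRNA depends on iron, so the mRNA level is not a measure of the enzyme.

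With 1 sample per group, no difference between single groups has a replicate check. The values below are FPKM as deposited, which are scaled per transcript length. Differences are given as the fold of the higher over the lower FPKM, and a gene counts as past 2-fold when that fold is above 2. The study used the same fold, but asked for it between the GFP fractions of both tissues at once, while here it is also counted in single comparisons and between tissues. Between 12372 and 17345 genes were detected per sample, fewer in the GFP+ than in the GFP- sample of each tissue, and the FPKM summed to between 541453 and 1000850. The tissue labels hold: of the 8 fetal marker genes past the filter, 7 were past 2-fold higher in FL than in BM among GFP+ cells and 8 among GFP- cells. Of all filtered genes, 24.1% (GFP+) and 19.2% (GFP-) were past 2-fold higher in FL. The GFP labels could not be checked in this way, since no row of a reporter gene was used here, so every direction between the fractions rests on the labels as deposited.

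The BM GFP+ sample stood apart in its markers. *Procr* and *Tek*, which mark HSCs, were listed at 0 there, and 10 of 12 HSC markers were past 2-fold lower than in BM GFP-. Of all filtered genes, 22.9% were past 2-fold lower in BM GFP+ than in BM GFP-. *Cd48*, whose product the gate selects against, stood at 51.4 (GFP+) and 17.4 FPKM (GFP-) in the FL and at 267 (GFP+) and 126 FPKM (GFP-) in the BM. The granulocyte markers summed to 587, 310, 62271 and 17455 FPKM in the same order, the B cell markers to 96.3, 41.9, 3255 and 868, and the T cell markers to 0.0624, 0.453, 109 and 23.1. The macrophage markers summed to 53.6, 15.1, 195 and 57.2 and the megakaryocyte markers to 56.2, 69.7, 389 and 460. The erythroid markers, 17 distinct rows, summed to 2474, 2496, 25957 and 4800 FPKM. Apart from the megakaryocyte markers, which were highest in BM GFP-, all of these sums were thus highest in BM GFP+ and next highest in BM GFP-. The hepatocyte markers had another order, at 452, 68.4, 79.8 and 54.6 FPKM, with FL GFP+ the highest. Their part in the results below was not tested. In bulk samples, fewer cells of a type and less RNA per cell cannot be told apart.

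The promoters of the ALA synthase genes, and of the enzyme genes in which a GATA motif was found, are shown first. Each is the 250 bases upstream of a RefSeq transcript start on GRCm38.p6, written along the gene's strand, and 7 of the 8 genes matched the RefSeq table, with 10 starts. Capitals mark a GATA motif, searched as AGATAA or AGATAG and as TGATAA or TGATAG, or a CACCC motif, the core of sites for KLF1 and related factors, each on both strands (a CACCC motif on the other strand reads GGGTG). Of all 32851 promoters of this length, 26.5% held a GATA motif, 52.0% a CACCC motif and 11.8% both.
Alas2, chrX:150547167-150547416 (plus strand): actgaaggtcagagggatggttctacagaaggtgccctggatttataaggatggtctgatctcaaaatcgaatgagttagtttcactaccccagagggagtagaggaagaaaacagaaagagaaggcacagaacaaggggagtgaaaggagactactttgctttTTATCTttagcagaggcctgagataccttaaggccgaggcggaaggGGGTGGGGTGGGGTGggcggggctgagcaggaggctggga
Alas1, chr9:106247731-106247980 (minus strand): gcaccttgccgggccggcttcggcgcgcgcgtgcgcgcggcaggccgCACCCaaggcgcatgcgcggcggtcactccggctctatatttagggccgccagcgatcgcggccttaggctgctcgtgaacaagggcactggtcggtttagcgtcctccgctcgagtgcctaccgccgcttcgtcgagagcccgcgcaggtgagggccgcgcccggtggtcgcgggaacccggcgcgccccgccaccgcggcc
Uros, chr7:133702501-133702750 (minus strand, the downstream of its starts): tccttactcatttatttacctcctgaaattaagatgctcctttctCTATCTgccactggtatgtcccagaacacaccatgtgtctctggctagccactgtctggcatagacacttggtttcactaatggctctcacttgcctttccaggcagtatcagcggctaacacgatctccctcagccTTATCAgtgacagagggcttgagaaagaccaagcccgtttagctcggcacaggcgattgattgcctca
Cpox, chr16:58669958-58670207 (plus strand): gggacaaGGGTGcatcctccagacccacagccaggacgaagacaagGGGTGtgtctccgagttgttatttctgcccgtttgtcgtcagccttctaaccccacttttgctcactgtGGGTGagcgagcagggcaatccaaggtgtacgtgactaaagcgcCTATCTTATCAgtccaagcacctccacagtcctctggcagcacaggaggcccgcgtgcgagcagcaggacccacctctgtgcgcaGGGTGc

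The *Alas2* promoter held 1 GATA motif and 3 CACCC motifs, while the *Alas1* window shown, at the downstream of its starts, held no GATA motif and 1 CACCC motif. The window at the upstream start of *Alas1*, not shown, likewise held no GATA motif and 1 CACCC motif. The *Cpox* promoter held 2 GATA motifs, which overlap by 1 base, and 4 CACCC motifs. The downstream start of *Uros* had 2 GATA motifs and 0 CACCC motifs. At the starts of *Urod*, *Ppox* and *Alad*, and at the upstream start of *Uros*, no GATA motif was found, and of these windows 1, at a start of *Alad*, held 1 CACCC motif. A match to these letters is a description of the window and not evidence that a factor binds there.

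The first step of the pathway separated the tissues. *Alas1* stood at 28.4 (GFP+) and 29.7 FPKM (GFP-) in the FL and at 132 (GFP+) and 117 FPKM (GFP-) in the BM. Both BM samples thus lay well above both FL samples, and the GFP fractions of a tissue were close to each other. *Alas1* was 4.67-fold higher in BM than in FL among GFP+ cells and 3.94-fold higher among GFP- cells. The fractions differed 1.05-fold in FL, where GFP- was higher, and 1.13-fold in BM, where GFP+ was higher.

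*Alas2* stood at 11.9 (GFP+) and 12.9 FPKM (GFP-) in the FL and at 259 (GFP+) and 47.8 FPKM (GFP-) in the BM. The FL samples were nearly level, and BM GFP+ was far above every other sample. *Alas2* was 5.42-fold higher in GFP+ than in GFP- cells of the BM, while in FL the GFP- sample was 1.08-fold higher. Against FL, the BM sample was 21.8-fold higher among GFP+ cells and 3.72-fold higher among GFP- cells. Within a sample, *Alas2* moved from percentile 54.7 of the filtered genes in FL GFP+ to percentile 95.9 in BM GFP+, and *Alas1* from 71.5 to 92.0. *Alas2* was the highest of the 8 genes in BM GFP+, where it took 35.6% of their summed FPKM, against 5.54% (GFP+) and 6.29% (GFP-) in the FL and 12.2% in BM GFP-.

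**Figure D1:**
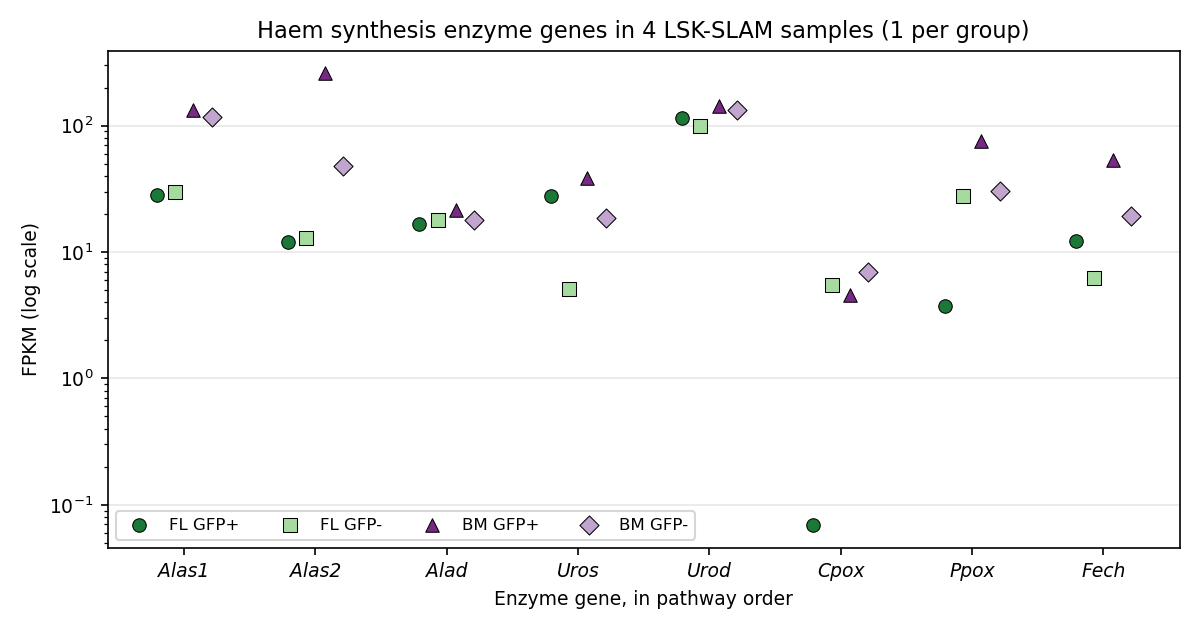
FPKM (log axis) of the haem synthesis enzyme genes in pathway order, 1 point per sample and no error bars because each group has 1 sample. *Alas1* and *Alas2* are higher in both BM samples than in both FL samples, *Alad* and *Urod* lie close together, and *Cpox* is at 0.0689 FPKM in FL GFP+.

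Since a ratio of FPKM within a sample does not depend on how samples are scaled against each other, the ALA synthases were also set against each other. The FPKM ratio of *Alas2* to *Alas1* was 0.419 (GFP+) and 0.433 (GFP-) in the FL, against 1.96 (GFP+) and 0.409 (GFP-) in the BM. *Alas1* was therefore the higher ALA synthase transcript in 3 of the 4 samples, at nearly the same ratio, and *Alas2* was the higher in BM GFP+ alone.

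*Alas2* was also set against erythroid genes of the same sample. *Hbb-b1*, an adult beta globin gene whose values are identical to those of *Hbb-bs* in these files, stood at 630 (FL GFP+), 623 (FL GFP-), 14659 (BM GFP+) and 2042 FPKM (BM GFP-). *Alas2* amounted to 1.89%, 2.07%, 1.77% and 2.34% of *Hbb-b1* in these samples. This ratio spanned 1.32-fold, although *Alas2* itself spanned 21.8-fold. The ratio of *Alas2* to *Hba-a1*, an alpha globin gene, spanned 1.53-fold and that to *Slc4a1*, the anion exchanger band 3, 7.93-fold. For comparison, the ratio of *Alas1* to *Hbb-b1* spanned 6.34-fold. Of 8309 genes that reached 1 FPKM in all 4 samples, 3 had a ratio to *Hbb-b1* that spanned no more than that of *Alas2*, namely *Alas2* itself and the identical *Hba-a1* and *Hba-a2*. The choice of *Hbb-b1* was made after the values were seen, and the globin rows and *Alas2* share the same 4 libraries, so no test is given.

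**Figure D2:**
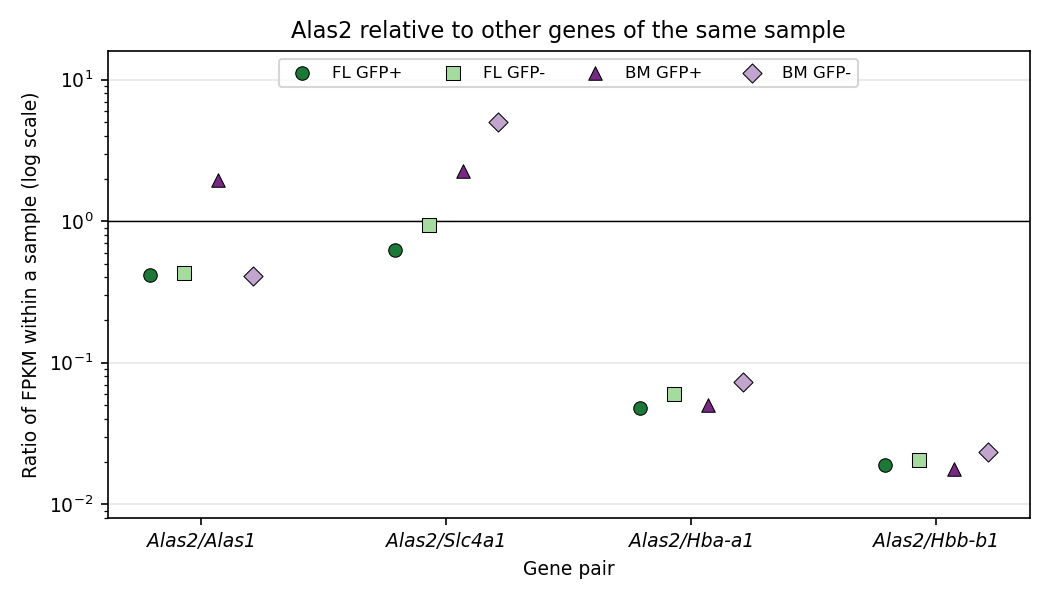
FPKM of *Alas2* divided by that of *Alas1* and of 3 erythroid genes in the same sample (log axis), 1 point per sample, with a line at equal levels. The ratio to *Alas1* is 1.96 in BM GFP+ and between 0.409 and 0.433 in the other samples, while the ratio to *Hbb-b1* stays within 1.32-fold.

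By the distance between profiles of log2(FPKM + 1), each centred on its 4-sample mean, the genes with the pattern most like *Alas1* among 8688 genes were *Pdcd4* (distance 0.13), *Smim5* (0.185) and *Psmb8*, an immunoproteasome subunit (0.197). For *Alas2* they were *Chst3* (0.165), *Dtx1* (0.177) and *Cd209d* (0.199), which are at or near 0 FPKM in FL, and *Hbb-b1* ranked 11th (0.319). The pseudocount decides this order for genes near 0. Without it, over 8310 genes and as an alternative added after the data were seen, the genes nearest to *Alas2* were *Hbb-b1* (0.304), with its identical copy, and *Hba-a1* (0.48), with its own. The nearest to *Alas1* were again *Smim5*, *Pdcd4* and *Psmb8*. These distances rest on 4 samples and are a description.

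The cytosolic steps varied less between the samples, apart from *Uros*. *Alad*, which encodes porphobilinogen synthase, stood at 16.8 (GFP+) and 17.8 FPKM (GFP-) in the FL and at 21.5 (GFP+) and 18.0 FPKM (GFP-) in the BM. *Urod*, uroporphyrinogen decarboxylase, stood at 114, 100.1, 144 and 134 FPKM in the same order. Highest and lowest samples thus differed 1.28-fold for *Alad* and 1.44-fold for *Urod*, and neither gene was past 2-fold in any comparison. *Urod* was the highest of the 8 genes in FL GFP+, FL GFP- and BM GFP-, and lay between percentile 92.5 and 93.3 of the filtered genes in every sample.

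*Uros* encodes uroporphyrinogen III synthase, which closes the ring in the orientation that leads to haem. It stood at 27.7 (GFP+) and 5.05 FPKM (GFP-) in the FL and at 38.8 (GFP+) and 18.4 FPKM (GFP-) in the BM. The GFP+ sample was the higher in each tissue, and FL GFP- was the lowest of the 4. *Uros* was 5.47-fold higher in the GFP+ fraction of the FL and 2.10-fold in that of the BM, and it was the only one of the 8 genes past 2-fold in the same direction in both tissues. The BM difference lies just past the threshold and was within 2-fold when the samples were rescaled to a common total, upper quartile or median ratio. Of all filtered genes, 3.26% were past 2-fold higher in GFP+ in both tissues and 8.98% higher in GFP- in both.

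The last mitochondrial steps also differed between the samples. *Cpox*, coproporphyrinogen oxidase, stood at 0.0689 (GFP+) and 5.44 FPKM (GFP-) in the FL and at 4.54 (GFP+) and 6.97 FPKM (GFP-) in the BM. FL GFP+ was thus near 0 and the other 3 samples lay close together. Set side by side, the FL GFP- value was 79.1-fold the FL GFP+ value and the BM GFP+ value 65.9-fold, but so low an FPKM can rest on only a few fragments at the read depth stated in the methods of the study. The files hold no read counts, and no error was computed. Among 3317 genes within 2-fold of *Cpox* in FL GFP-, 605 (18.2%) were under 0.1 FPKM in FL GFP+, while in BM 233 of 3443 (6.77%) genes matched in the same way to BM GFP- were under 0.1 FPKM in BM GFP+.

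*Ppox*, protoporphyrinogen oxidase, stood at 3.74 (GFP+) and 27.5 FPKM (GFP-) in the FL and at 75.0 (GFP+) and 30.6 FPKM (GFP-) in the BM. The GFP- samples of the tissues were close, FL GFP+ was the lowest sample and BM GFP+ the highest. *Ppox* was 7.38-fold higher in GFP- than in GFP+ cells of the FL and 2.45-fold higher in GFP+ than in GFP- cells of the BM, so it was past 2-fold in opposite directions, as were 11.9% of all filtered genes. Among GFP+ cells it was 20.1-fold higher in BM than in FL, and among GFP- cells 1.11-fold. When samples were rescaled to a common FPKM total, the BM difference between fractions fell within 2-fold.

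*Fech*, ferrochelatase, stood at 12.2 (GFP+) and 6.21 FPKM (GFP-) in the FL and at 53.0 (GFP+) and 19.2 FPKM (GFP-) in the BM. The GFP+ sample was the higher in each tissue and both BM samples lay above both FL samples. The fractions differed 2.76-fold in BM and 1.96-fold in FL, just under the threshold. *Fech* was 4.36-fold higher in BM than in FL among GFP+ cells and 3.10-fold higher among GFP- cells.

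Counted together, the enzyme genes were not shifted to one side in FL. Between the FL fractions, 1 of the 8 genes (*Uros*) was past 2-fold higher in GFP+, as were 16.6% of all filtered genes, and 2 (*Cpox* and *Ppox*) were past 2-fold higher in GFP-, as were 28.0%. Their median difference in log2(FPKM + 1), GFP+ minus GFP-, was -0.073, against 0.0 for all filtered genes. In BM, 4 of the 8 (*Alas2*, *Uros*, *Ppox* and *Fech*) were past 2-fold higher in GFP+, against 19.7% of all filtered genes, and 0 were higher in GFP-, against 22.9%. The median difference was 0.64, against 0.026 for all filtered genes. After rescaling to a common FPKM total, 2 of the 8 (*Alas2* and *Fech*) were past 2-fold higher in BM GFP+ and 1 (*Cpox*) in BM GFP-.

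Between the tissues, the 8 genes were all higher in BM than in FL in both fractions as deposited, whereas after rescaling to a common FPKM total 5 were higher in BM among GFP+ cells and 4 among GFP- cells. In GFP+ cells, 5 (*Alas1*, *Alas2*, *Cpox*, *Ppox* and *Fech*) were past 2-fold higher in BM, against 32.1% of all filtered genes, and 0 were past 2-fold higher in FL, against 24.1%. In GFP- cells, 4 (*Alas1*, *Alas2*, *Uros* and *Fech*) were past 2-fold higher in BM, against 20.0%, and 0 in FL, against 19.2%. *Alas1*, *Alas2* and *Fech* were past 2-fold higher in BM in both fractions, as were 12.2% of all filtered genes. The same 5 and the same 4 genes were past 2-fold under each of the 3 rescalings. The medians of log2(FPKM + 1), FL minus BM, were -2.11 in GFP+ and -0.95 in GFP- cells, against -0.029 and -0.034 for all filtered genes.

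**Figure D3:**
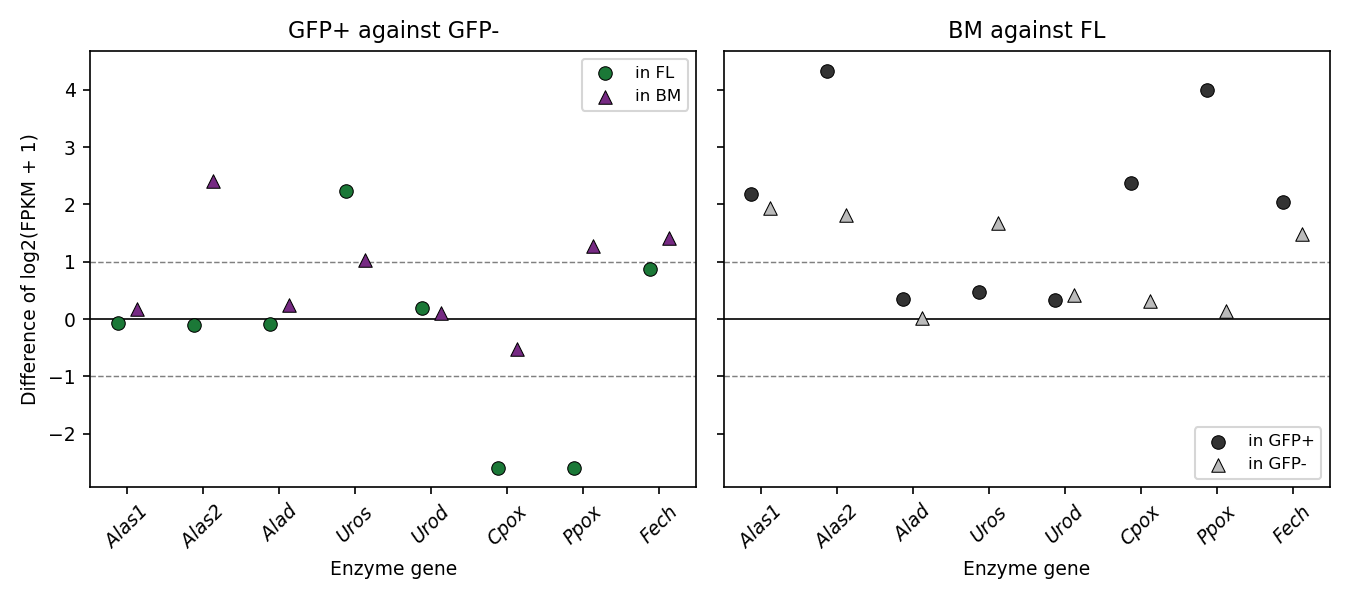
Differences of log2(FPKM + 1) for the enzyme genes, GFP+ minus GFP- in each tissue (left) and BM minus FL in each fraction (right), with dashed lines at a doubling on this scale and 1 point per comparison. *Ppox* lies below 0 in FL and above 0 in BM on the left, and on the right no point lies below 0 before rescaling.

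The genes were also grouped by where their enzymes work. Of the 5 mitochondrial enzymes (*Alas1*, *Alas2*, *Cpox*, *Ppox* and *Fech*), all 5 were past 2-fold higher in BM among GFP+ cells, against 0 of the 3 cytosolic ones (*Alad*, *Uros* and *Urod*). Among GFP- cells the counts were 3 of 5 and 1 of 3, and for GFP+ over GFP- cells in BM they were again 3 of 5 and 1 of 3. The shares of all filtered genes in these comparisons were 32.1%, 20.0% and 19.7%. The mitochondrial enzymes summed to 56.2 (GFP+) and 81.8 FPKM (GFP-) in the FL and to 524.6 (GFP+) and 221.7 FPKM (GFP-) in the BM, and the cytosolic ones to 158.5, 122.9, 204.1 and 170.1. The balance thus lay with the cytosolic enzymes in FL and with the mitochondrial enzymes in BM. *Alas2* is the largest part of the mitochondrial sum in BM GFP+, and the grouping was made with the values known.

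A test across all genes was possible only with one factor standing in as the replicate of the other. In limma on log2(FPKM + 1), with GFP fraction as a block and 1 residual degree of freedom per gene, 2 of the 8 genes were called for tissue at an adjusted p under 0.05, *Alas1* and *Alas2*, as were 2.46% of the 11707 genes tested. *Alas1* was higher in BM by 2.06 on the log2 scale (SE 0.386, limma adjusted p = 0.03) and *Alas2* by 3.08 (SE 0.621, limma adjusted p = 0.0436). These calls sit close to the threshold: over the 4 alternative fits the limma adjusted p ran from 0.0363 to 0.267 for *Alas1* and from 0.058 to 0.276 for *Alas2*. *Fech* was higher in BM by 1.76 (SE 0.637, limma adjusted p = 0.204) and *Ppox* by 2.08 (SE 0.859, limma adjusted p = 0.264), and neither was called. For the GFP contrast, with tissue as the block, limma called 0 of the 8 genes and 0.111% of all genes tested. At an unadjusted p under 0.05 it gave 1 of the 8, *Uros*, at 1.64 higher in GFP+ (SE 0.645, limma adjusted p = 0.78), while 732 of the 11707 genes tested were under the same unadjusted p.

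The erythroid markers had the same direction as *Alas2* and *Fech* in most comparisons. In BM, 10 of the 17 erythroid rows were past 2-fold higher in GFP+ and 0 in GFP-, and among GFP+ cells 11 were past 2-fold higher in BM and 0 in FL. Between the FL fractions, 6 were higher in GFP+ and 4 in GFP-, and among GFP- cells 7 were higher in BM and 0 in FL. Of all filtered genes, 19.7% were past 2-fold higher in GFP+ and 22.9% in GFP- in BM, and 16.6% and 28.0% in FL. Among GFP+ cells 32.1% of all filtered genes were higher in BM and 24.1% in FL, and among GFP- cells 20.0% and 19.2%. *Slc4a1* stood at 18.9 (FL GFP+), 13.7 (FL GFP-), 115 (BM GFP+) and 9.59 FPKM (BM GFP-). *Sptb* and *Trim10* were listed at 0 in FL GFP+ and *Car1* at 0 in FL GFP-, while no erythroid marker was at 0 in BM. The median differences of the erythroid markers in log2(FPKM + 1) were 0.44 between the FL fractions, 1.09 between the BM fractions, and -2.28 (GFP+) and -0.71 (GFP-) for FL minus BM. Ter119 was in the lineage cocktail, so cells that carry this erythroid antigen lay outside the gate. The part of these markers in the enzyme results was not tested.

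**Figure D4:**
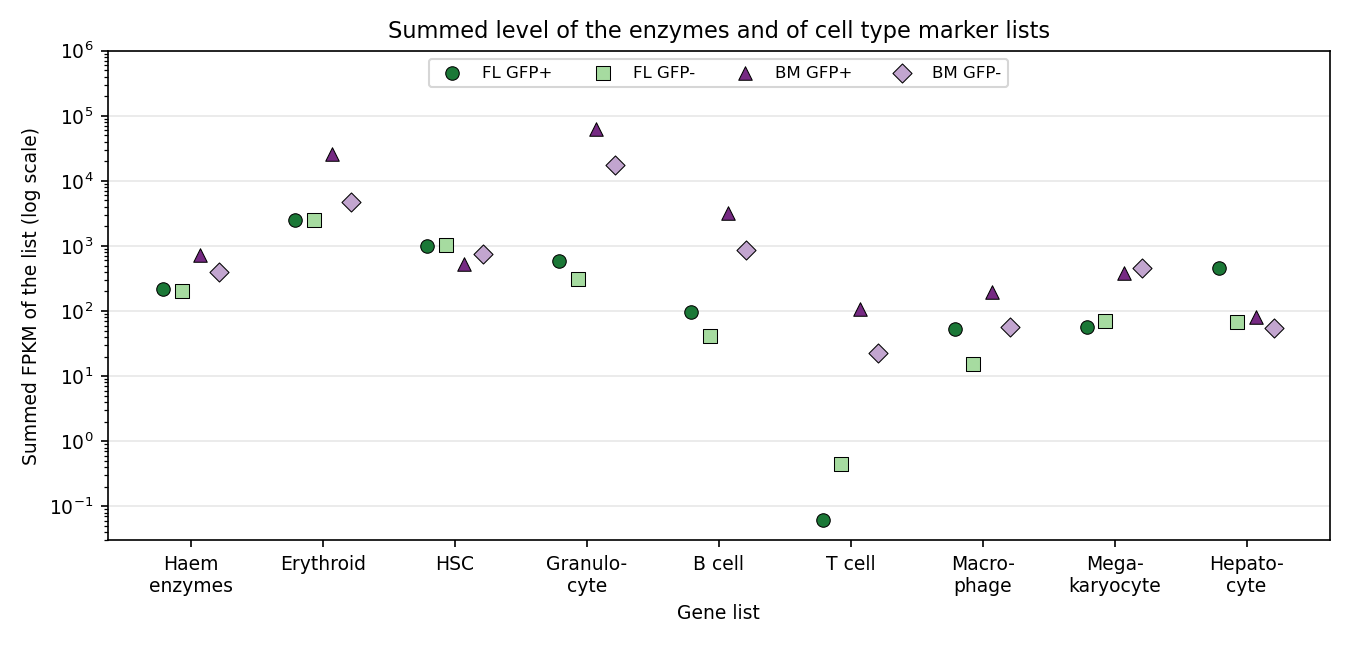
Summed FPKM (log axis) of the 8 enzyme genes and of marker lists for 8 cell types, 1 point per sample. BM GFP+ has the highest sum for the enzymes and for the erythroid, granulocyte, B cell, T cell and macrophage lists, and the lowest for the HSC list.

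Genes that serve the pathway differed in both directions. Of 18 genes for mitochondrial substrate supply, transport and iron-sulphur clusters, 3 were past 2-fold higher in BM GFP+ than in BM GFP- and 4 were lower. Among all filtered genes the shares were 19.7% and 22.9%. The 3 were *Slc25a37*, the mitochondrial iron importer mitoferrin-1, *Abcb10*, a mitochondrial transporter that binds it, and *Glrx5*, a glutaredoxin of iron-sulphur cluster assembly. *Slc25a37* stood at 3.87 (FL GFP+), 12.8 (FL GFP-), 41.3 (BM GFP+) and 7.21 FPKM (BM GFP-), *Abcb10* at 8.47, 8.50, 38.3 and 12.4, and *Glrx5* at 27.4, 62.8, 145 and 61.8. BM GFP+ was thus the highest sample for each, as it was for *Alas2*. In FL, 1 of the 18 was past 2-fold higher in GFP+ and 4 in GFP-, among them *Slc25a37* (3.30-fold) and *Glrx5* (2.29-fold). Of all filtered genes, 16.6% were higher in FL GFP+ and 28.0% in FL GFP-. Between the tissues, 8 of the 18 were higher in BM and 4 in FL among GFP+ cells, and 0 were past 2-fold either way among GFP- cells. The shares of all filtered genes were 32.1% (BM) and 24.1% (FL) among GFP+ cells and 20.0% and 19.2% among GFP- cells. The median differences of the 18 genes in log2(FPKM + 1) were 0.014 (FL) and -0.078 (BM) between fractions, and -0.53 (GFP+) and -0.28 (GFP-) for FL minus BM. The highest on average were *Tmem14c*, a porphyrin transporter, at 133 to 350 FPKM, and *Suclg1*, a succinyl-CoA synthetase subunit, at 152 to 247.

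On the other side of the pathway stand haem breakdown and export, of whose 9 genes 8 passed the filter. *Blvrb*, biliverdin reductase B, was the only one past 2-fold in the same direction in both fractions, at 45.3 and 38.2 FPKM in FL GFP+ and FL GFP- and 288 and 138 in BM GFP+ and BM GFP-. *Hmox1*, the inducible haem oxygenase, stood at 8.80, 20.5, 59.5 and 26.6 FPKM, past 2-fold higher in GFP- in FL and in GFP+ in BM, the same pattern of directions as *Ppox*. In all, 2 were higher in GFP+ and 1 in GFP- in each tissue. Higher in BM were 2 in each fraction, and higher in FL were 1 among GFP+ and 0 among GFP- cells. The corresponding medians were 0.29, -0.11, -0.23 and -0.45. Of all filtered genes, 16.6% were past 2-fold higher in GFP+ and 28.0% in GFP- in FL, and 19.7% and 22.9% in BM. Higher in BM were 32.1% among GFP+ and 20.0% among GFP- cells, and higher in FL were 24.1% and 19.2%. *Pgrmc1*, a haem-binding membrane protein, was the other highest gene on average, at 77.3 to 131 FPKM.

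Of 11 genes for iron uptake and storage, 2 were higher in GFP+ and 2 in GFP- in FL, and 2 and 1 in BM. Among GFP+ cells 4 were higher in BM and 1 in FL, and among GFP- cells 1 each, with medians of 0.58, 0.26, -0.28 and -0.64 in the same order of comparisons. The ferritin chains had the highest levels, *Ftl1* at 1696 to 4715 FPKM and *Fth1* at 868 to 3117, and both were highest in BM GFP+. *Tfrc*, the transferrin receptor that brings iron into erythroid cells, stood at 18.1, 10.3, 22.3 and 18.4 FPKM and was within 2-fold in all 4 comparisons. Of the 3 genes for haem a and c, 2 were higher in GFP+ and 1 in GFP- in FL, and 1 was higher in BM among GFP+ cells, with none past 2-fold in the remaining comparisons (medians 0.97, 0.73, 0.36 and -0.56). Beside both lists, 16.6% of all filtered genes were higher in GFP+ and 28.0% in GFP- in FL, and 19.7% and 22.9% in BM. Among GFP+ cells 32.1% were higher in BM and 24.1% in FL, and among GFP- cells 20.0% and 19.2%.

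Regulators of ALA synthase did not follow *Alas2* as a group. Of 11, 10 passed the filter, of which 2 were past 2-fold higher in GFP+ and 2 in GFP- in FL, and 0 and 2 in BM. Among GFP+ cells 2 were higher in BM and 3 in FL, and among GFP- cells 3 and 1, with medians of 0.69, -0.21, -0.073 and 0.038. Of all filtered genes, 16.6% were higher in GFP+ and 28.0% in GFP- in FL, and 19.7% and 22.9% in BM. Among GFP+ cells 32.1% of them were higher in BM and 24.1% in FL, and among GFP- cells 20.0% and 19.2%. *Klf1*, the erythroid Krüppel-like factor, was the only regulator past 2-fold higher in BM in both fractions, at 19.6 and 13.9 FPKM in FL GFP+ and FL GFP- and 86.7 and 52.0 in BM GFP+ and BM GFP-. *Gata1* stood at 36.5, 6.58, 41.0 and 49.3 FPKM, so that FL GFP- was the low sample, as for *Uros*, and the BM fractions differed 1.20-fold. *Gata2*, which precedes GATA1 in stem and progenitor cells, stood at 138, 87.6, 25.0 and 86.4, lowest in BM GFP+, and *Nfe2* at 153 to 192.

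On NCBI37/mm9 (GENCODE vM1), the genes lie at chr9:106135786-106150457 (*Alas1*, minus strand), chrX:146981918-147005181 (*Alas2*, plus), chr4:62170203-62180952 (*Alad*, minus), chr7:140877926-140901755 (*Uros*, minus), chr4:116662570-116667018 (*Urod*, minus), chr16:58670321-58680504 (*Cpox*, plus), chr1:173206121-173211317 (*Ppox*, minus) and chr18:64616204-64648720 (*Fech*, minus). Exons of *Ppox* share 791 of 4515 bases with *B4galt3* and those of *Alas2* 311 of 2403 with *Apex2*, while *Alas1* shares 114 of 4310 with *4930500F10Rik*. The other 5 genes share none. *B4galt3* stood at 22.5 (FL GFP+), 23.7 (FL GFP-), 39.2 (BM GFP+) and 26.1 FPKM (BM GFP-), and *Apex2* at 2.85, 15.0, 11.4 and 10.4. Whether reads were counted by strand is not stated, so values of *Ppox* and *Alas2* may hold reads of these neighbours.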

How the data were processed

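RNA from 4 LSK-SLAM samples was sequenced on a HiSeq2000 from SMARTER libraries, which amplify cDNA from little RNA. The authors mapped the reads with Bowtie and TopHat and computed the deposited FPKM with Cufflinks 2.2.1 (Cuffquant, corrected for fragment bias and multiple mapping, then Cuffnorm with geometric scaling of all samples together). The study's methods name NCBI37/mm9 and the labels' processing notes mm10; which build underlies the deposited values was not settled here. The files hold FPKM without read counts, so no count model was fitted and no counting error of an FPKM was computed. Each group has 1 sample.

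Folds used FPKM as deposited, with a threshold of 2-fold and a filter that asks for 1 FPKM or more in 1 of the samples. log2 differences used a pseudocount of 1, which understates differences of low genes. limma 3.58.1 in R 4.3.3 (lmFit, eBayes with trend, Benjamini-Hochberg) was fitted to every gene that reached 1 FPKM in 2 of the samples or more, with tissue and GFP fraction as additive terms. Any difference of one effect between levels of the other counts as error there. Other steps used Python 3.11.15 with pandas 2.3.3, numpy 2.4.6 and matplotlib 3.10.9. Promoters came from RefSeq (GRCm38.p6), positions from GENCODE vM1.

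Alternatives were pseudocount 0.1, thresholds of 1.5-fold and 4-fold, other filters, rescaling of the samples to a common FPKM total, upper quartile or median ratio, and limma without its trend, block or filter. Members, lists and tests were chosen with earlier results of these data known. Genes named beside the 8 enzymes are, per list, those past 2-fold in the same direction in both tissues or fractions and the 2 with the highest mean FPKM, plus the 3 genes with the nearest profile to *Alas1* and *Alas2*. The others, such as *Hmox1*, *Tfrc*, *Gata1*, *Slc25a37*, *Abcb10* and *Glrx5*, were named after their values were seen. *Flvcr1*, *Flvcr2* and *Epb42* were read from the rows *Mfsd7b*, *Mfsd7c* and *Epb4.2*, and *Hbb-b2*, *Ahsp* and *Trac* matched no row under these names. Some genes of the pathway and of the lists are not reported here by name.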

Additional observations from a re-analysis of the deposited data

Results flagged for a closer look

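In 4 of the 8 enzyme genes the GFP+ minus GFP- difference in log2(FPKM + 1) had opposite signs in FL and BM. The share of all filtered genes with opposite signs was not counted, so this count is a description only. The BM difference exceeded the FL difference by 3.86 for *Ppox*, 2.52 for *Alas2*, 0.33 for *Alad* and 0.24 for *Alas1*. With 1 sample per group these differences between tissues were not tested. Of these 4 genes, only *Ppox* was past 2-fold in both tissues. The FL differences of *Alas1*, *Alas2* and *Alad* were -0.064, -0.10 and -0.082, so that their sign there rests on folds of 1.05 to 1.08. After rescaling to a common FPKM total, GFP- was the higher fraction of the BM for *Alas1* and *Alad*, as it was in FL.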

How the results depend on the processing

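Of 128 recomputed log2 differences of the enzyme genes, 119 moved by less than 1.5-fold and 9 by more, and none of the differences past 2-fold changed sign. Of the 9, 7 came from rescaling to a common FPKM total, all between FL and BM in GFP+ cells. The other 2 came from a pseudocount of 0.1 and were both *Cpox*, whose log2 difference became -5.04 between the FL fractions and -4.78 between FL and BM GFP+ cells. After that rescaling the median log2 difference of all filtered genes was -0.137 between the FL fractions, -0.278 between the BM fractions, and 0.227 (GFP+) and 0.303 (GFP-) for FL minus BM, against 0.0, 0.026, -0.029 and -0.034 as deposited. With the upper quartile it was -0.108 between the FL fractions.

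At 4-fold, 1 gene remained past the threshold between the BM fractions (*Alas2*) and 0 between FL and BM GFP- cells. The count past the threshold in the same direction in both tissues was 3 at 1.5-fold (*Uros* and *Fech* in GFP+, *Cpox* in GFP-), and 0 at 4-fold, after rescaling to a common upper quartile and after rescaling by median ratio. After rescaling to a common FPKM total it was again 1, but this was *Cpox* in GFP- cells and not *Uros*. limma called 0 of the 8 genes for tissue without the trend, 1 without the block, 0 with pseudocount 0.1 and 1 with no filter, that 1 being *Alas1*. Over all genes the tissue calls were 288, and 0, 176, 80 and 189 under these alternatives, and the GFP calls were 13, and 0, 4, 1 and 11. No replicate could be left out with 1 sample per group. The labels hold no replicate numbers, so samples were paired only through the tissue and GFP fraction terms of limma. The files hold no read counts, and no error was computed for the lowest enzyme value, *Cpox* in FL GFP+.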
